A study of Mus musculus with 4 samples.

Results

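The microglia described here are 2809 cells of the injured mouse spinal cord at 14 days post injury (dpi) with low levels of Lpl and Igf1. They were taken from the 11631 barcodes of the 14 dpi library, out of 31660 barcodes in the 4 libraries of the study. A barcode entered the microglial gate with at least 600 genes, at least 5000 unique molecular identifiers (UMIs, 1 per captured transcript), at most 10% mitochondrial UMIs, and a UMI of at least 4 of 9 microglial genes. The 9 genes were Tmem119, P2ry12, P2ry13, Sall1, Siglech, Gpr34, Olfml3, Sparc and Slc2a5. Of the 4993 gated cells at 14 dpi, members had Lpl and Igf1 together below 500 CPM (UMIs per 1000000 UMIs, here of the cell), and Ifit1, Ifit2, Ifit3, Rsad2, Cxcl10, Isg15, Iigp1 and Usp18 together below 3000 CPM. They made up 56.3% of the gated cells (exact Clopper-Pearson interval 54.9 to 57.6%, counting error only). The members were thus selected on measured levels of these genes, so low Lpl, Igf1 and interferon genes describe how the cells were chosen and are no result. The limit in Lpl and Igf1 cut through a continuous range, with 110 cells at 450 to 500 and 84 cells at 500 to 550 CPM.

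The question was how far these cells stood from the sham microglia that pass the same rule. The sequenced mice were labelled C57BL/6, and the study's methods give an age of 3 months at injury. CD45+ cells were sorted from the cord segment around the injury and sequenced as 10x 3′ libraries. Injured mice had a contusion at thoracic level 10. By the study's methods sham mice had the vertebral lamina opened without a contusion, while the sample titles of the sham libraries name healthy spinal cords. The study added actinomycin D (ActD), an inhibitor of transcription, while it dissociated the sham ActD, 3 dpi and 14 dpi samples, and a further sham library was made without it. For the 14 dpi library this is taken from the study's text, since its sample label does not name ActD. Each group is a single library of pooled male and female mice, and CD45+ sorting holds other leukocytes as well. The study's methods give a total of mice over the control, 3 dpi and 14 dpi groups, but not the number in each library. With 1 library per group no difference between conditions could be tested, so intervals below cover counting error only, and a gene is called higher or lower where it passed 2-fold. The 14 dpi library held 129935880 UMIs and the sham ActD library 27447471 UMIs in 2439 barcodes.

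Microglia are the resident macrophages of the central nervous system. In the uninjured cord they carry a homeostatic gene programme that includes receptors for extracellular nucleotides, such as P2ry12, and depends on TGF-beta. In demyelination, neurodegeneration and injury, microglia that meet lipid debris turn on a disease-associated programme, in which Trem2 signalling, apolipoprotein E, lysosomal genes and lipid handling genes take part.

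In the sham ActD library, 1612 of 1676 gated cells (96.2%) passed the same rule and are the reference. At 14 dpi, 2074 gated cells stood over the limit in Lpl and Igf1 and are called Lpl and Igf1 high below. Members had a median of 10925 UMIs and 2885 genes, and sham cells a median of 10049.5 UMIs. A median of 8 of the 9 gate genes was detected in members and 9 in sham cells, a count that the rule itself bounds. Of microglial genes outside the rule, members held Cx3cr1, the fractalkine receptor, at 2048 CPM and Fcrls, an Fc receptor-like gene, at 950 CPM, against 48.5 and 29.4 CPM in B cells of the same library. The rule did not remove every cell with transcripts of another cell type. Markers of another cell type (at least 5000 CPM for neutrophil genes, 1000 CPM for each other list) were found in 687 members, 24.5%, and in 128 sham cells, 7.94%. The most frequent among members were monocyte genes in 293 cells, T and NK cell genes in 222 and genes of injury macrophages in 164. Members with such markers had a median of 15919 UMIs and the other members 9967.5. Values "without mixed cells" below leave these cells out in both libraries, which keeps 2122 members and 1484 sham cells.

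The neighbourhood of Apoe is shown first because it held 2 of the 10 largest ratios of members over sham cells (some gene classes left out), Apoc4 and Apoc1, beside Apoe, a marker given with the members. Apoe, which encodes the lipid carrier apolipoprotein E, lies on chr7:19696109-19699188 of GRCm38 on the minus strand. Apoc1 (chr7:19689481-19692660) and Apoc4 (chr7:19678083-19681479) encode small apolipoproteins and lie downstream of it on the same strand. P2ry12 (chr3:59216272-59262871, minus strand) encodes the purinergic receptor by which microglia follow ADP. Spp1 (chr5:104435118-104441050, plus strand) encodes osteopontin, a secreted phosphoprotein. The 250 bases before the RefSeq start (GRCm38.p6) of 4 of these genes are printed 5′ to 3′ along the gene's strand, with matches to 3 short motifs, searched on both strands, in capitals. The windows are chr7:19699189-19699438 for Apoe, chr7:19681461-19681710 for Apoc4, chr3:59262986-59263235 for P2ry12 and chr5:104434861-104435110 for Spp1.
Apoe: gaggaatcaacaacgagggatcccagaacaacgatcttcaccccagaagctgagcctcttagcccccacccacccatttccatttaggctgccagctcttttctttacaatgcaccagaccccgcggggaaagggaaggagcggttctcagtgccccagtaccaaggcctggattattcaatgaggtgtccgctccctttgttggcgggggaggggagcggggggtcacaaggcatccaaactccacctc
Apoc4: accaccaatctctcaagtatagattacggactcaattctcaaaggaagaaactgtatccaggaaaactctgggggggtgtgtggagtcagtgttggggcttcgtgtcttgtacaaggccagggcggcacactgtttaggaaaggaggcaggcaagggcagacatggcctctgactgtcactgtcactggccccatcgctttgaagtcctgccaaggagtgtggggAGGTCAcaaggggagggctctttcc
P2ry12: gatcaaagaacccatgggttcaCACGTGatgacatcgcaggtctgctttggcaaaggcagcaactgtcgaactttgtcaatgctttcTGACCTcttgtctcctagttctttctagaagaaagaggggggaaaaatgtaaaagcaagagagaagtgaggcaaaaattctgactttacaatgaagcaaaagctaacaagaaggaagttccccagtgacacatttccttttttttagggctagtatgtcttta
Spp1: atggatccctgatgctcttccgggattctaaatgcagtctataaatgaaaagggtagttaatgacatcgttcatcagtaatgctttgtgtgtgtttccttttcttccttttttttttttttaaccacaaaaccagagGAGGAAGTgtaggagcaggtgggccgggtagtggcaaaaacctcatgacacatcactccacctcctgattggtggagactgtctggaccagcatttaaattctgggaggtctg
The motifs were GAGGAAGT, a form bound by the myeloid factor PU.1, AGGTCA, the hexamer of many nuclear receptors, and CACGTG, an E-box. None of the 3 was in this Apoe window. AGGTCA was in the Apoc4 window and, as its reverse complement, in the P2ry12 window, which also held the E-box, and the Spp1 window held GAGGAAGT. Among all 32851 RefSeq windows of this length, 2.44% held GAGGAAGT, 14.0% AGGTCA and 6.02% CACGTG, so the matches are a description of the letters only.

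Apoe stood at 3067 CPM in the summed sham ActD cells and at 70101 CPM in members. It was at 1935 CPM in the standard sham cells of the same rule, 18724 CPM in the gated 3 dpi cells and 85948 CPM in the Lpl and Igf1 high cells. Of the gated 3 dpi cells 81.8% were mixed, so 3 dpi levels here and below hold transcripts of other cells. Members were 22.9-fold above sham ActD (log2 ratio 4.51, exact conditional Poisson interval 4.50 to 4.53). Without mixed cells Apoe went from 1629 to 82900 CPM, 50.9-fold. Apoe RNA outside microglia was also higher in the 14 dpi library, since B cells, which should lack it, held 2532 CPM there and 175 CPM in sham. The member level was far above that background.

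Cst7, which encodes cystatin F, an inhibitor of lysosomal proteases, was at 17.6 CPM in sham ActD cells, 19.2 CPM in standard sham cells and 37.8 CPM in gated 3 dpi cells. Members held 359 CPM and Lpl and Igf1 high cells 689 CPM. The member level was 20.4-fold over sham ActD (log2 4.35, 4.20 to 4.51). Axl, a receptor tyrosine kinase that binds apoptotic cells through Gas6, was at 34.1, 24.5 and 25.5 CPM in the sham ActD, standard sham and 3 dpi cells. It reached 167 CPM in members and 227 CPM in Lpl and Igf1 high cells. The ratio of members to sham ActD was 4.90-fold (log2 2.29, 2.18 to 2.41). Both genes were therefore above every other library at 14 dpi, with members between the sham cells and the Lpl and Igf1 high cells.

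P2ry12 moved the other way, from 2052 CPM in sham ActD cells to 439 CPM in members, 4.68-fold lower (log2 −2.23, −2.25 to −2.20). It was at 959 CPM in standard sham cells, 102 CPM in gated 3 dpi cells and 173 CPM in Lpl and Igf1 high cells. The 3 dpi level depends on mixed cells, since the summed gate genes there were at 1660 CPM with them and 3241 CPM without. The standard sham level was itself below that of sham ActD, and against it the member log2 ratio was −1.13. P2ry12 is 1 of the 9 gate genes, so the gate asked for it or its companions in every group.

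Single cells were compared after drawing 5000 UMIs from each. The Apoe median was 200 CPM in sham cells, 57400 in members and 85700 in Lpl and Igf1 high cells. Its 5th to 95th percentiles were 0 to 12410 in sham cells and 8000 to 166720 in members, and 8.97% of members lay at or below the sham 95th percentile. P2ry12 had a median of 2200 CPM in sham cells, 400 in members and 0 in Lpl and Igf1 high cells. Its distributions overlapped more, since 56.5% of members lay at or above the sham 5th percentile of 400. Most members thus lay above the sham 95th percentile of Apoe. P2ry12 is a gate gene, so its overlap is partly set by the rule and no conclusion is drawn from it.

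**Figure D1:**
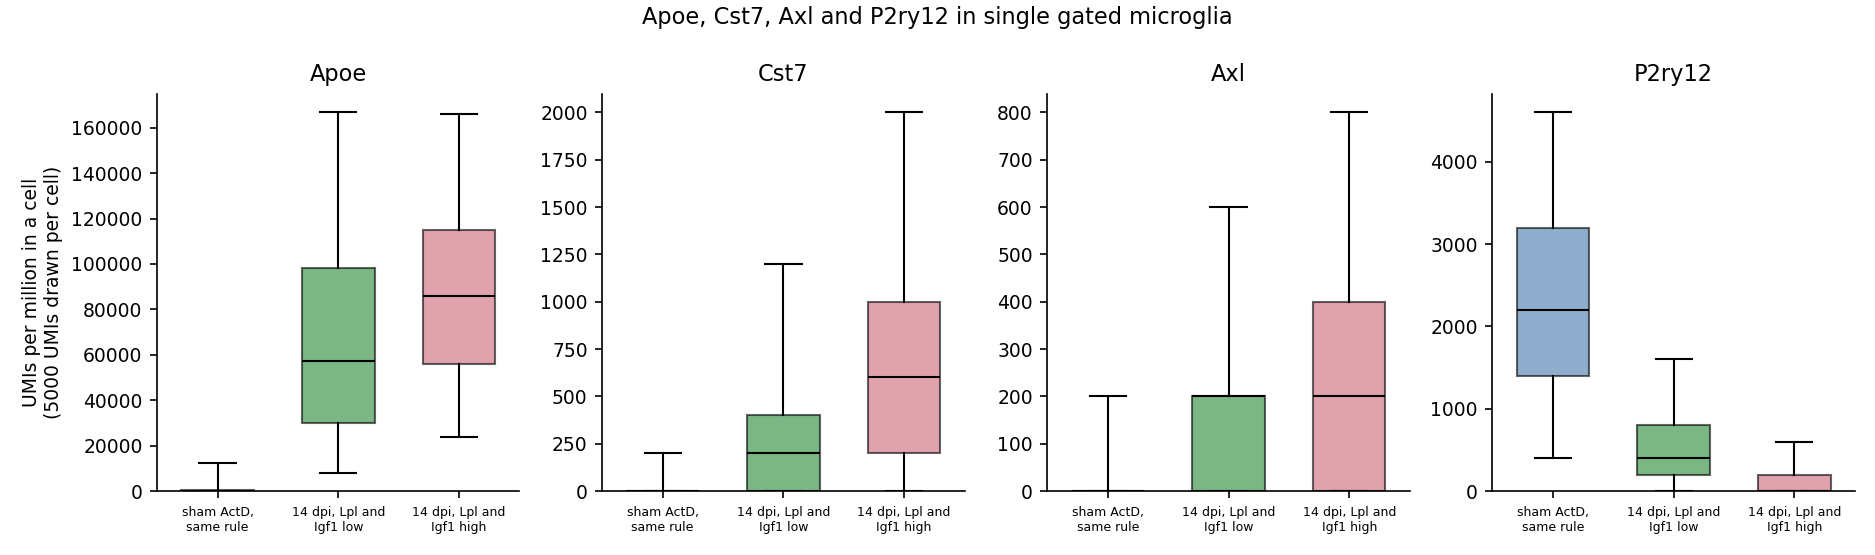
CPM of Apoe, Cst7, Axl and P2ry12 in single cells after drawing 5000 UMIs per cell, for 1612 sham ActD cells, 2809 members and 2074 Lpl and Igf1 high cells. Boxes span the quartiles with the median as a line and whiskers run from the 5th to the 95th percentile. The Apoe box of members (29800 to 98400) lies above the sham whisker, and their P2ry12 box (200 to 800) overlaps the sham whisker.

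At an equal draw of 1000 UMIs, Cst7 had a UMI in 23.9% of members and in 2.94% of 14 dpi B cells. Axl had a UMI in 15.8% of members and 0.49% of B cells. Both shares were above those in B cells, for which median depths before drawing were 3931 UMIs against 10925 in members. For Apoe a UMI in a cell says little, since 99.6% of members and 89.0% of B cells had 1 at this draw, against 26.9% of sham microglia. S100a8, a neutrophil gene, was in 29.4% of members and 31.6% of B cells, and its share in members was no higher than this background.

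Across the 10081 genes that reached 200 UMIs in both groups together, the median log2 ratio of members over sham was −0.43, and 87.0% of genes were within 2-fold. Of these genes 423 were higher (4.2%) and 890 lower (8.83%). The median was below 0, and after it was set to 0 the counts became 716 higher and 267 lower, so higher genes made up 32.2% of the calls before and 72.8% after. Most lists are therefore described by their median and by that median relative to all genes. Lpl and Igf1 high cells were compared with the same sham cells, so the comparisons share their control. Without mixed cells 264 of 9247 genes were higher in members (2.85%) and 938 lower (10.1%), around a median of −0.50. For the Lpl and Igf1 high cells 385 of 9907 genes were higher (3.89%) and 1952 lower (19.7%).

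The homeostatic list holds 30 genes of resting microglia outside the gate. None was higher in members and 18 were lower, with a median log2 of −1.06, or −0.63 relative to all genes, and 5 were lower once the median of all genes was set to 0. Their summed level was 91446 CPM in sham ActD, 71570 in standard sham, 46386 in members and 37303 in Lpl and Igf1 high cells. Cx3cr1 went from 4719 to 2048 CPM (log2 −1.20). Selplg, the selectin ligand PSGL-1, went from 2384 to 735 CPM (log2 −1.70), and Cst3, which encodes cystatin C, from 48008 to 21596 CPM (log2 −1.15). The lowest was Upk1b, a tetraspanin-family uroplakin, at 26.1 CPM in sham, 1.15 in members and 0.21 in Lpl and Igf1 high cells (log2 −4.49 in members). Other members of the list stood near the sham level. Fcrls was at 926 and 950 CPM (log2 0.04), and Lag3, an immune checkpoint receptor, at 250 and 319 CPM (log2 0.35). The programme was therefore lower as a sum, of which Cst3 alone was the largest part in sham cells and in members, with genes as far apart as Upk1b and Lag3. Without mixed cells 16 genes were lower and the median was −1.02. Set against the standard sham cells, the median was −0.46.

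The gate genes were used by the rule in every group, so their levels describe the chosen cells and add nothing to the homeostatic result. In members 8 of 9 were lower past 2-fold with a median log2 of −1.70, and 7 of 9 after centring on all genes. Slc2a5, a fructose transporter, was at 216 and 30.8 CPM (log2 −2.81) and Tmem119, a microglial membrane protein, at 1190 and 366 CPM. Sparc, a matricellular protein, was nearest to sham at 3337 and 1859 CPM (log2 −0.84).

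Of the 30 genes of the disease-associated list, 29 were tested. In members 17 were higher and none lower, with a median log2 of 1.20, or 1.64 relative to all genes, and 22 were higher after centring. In Lpl and Igf1 high cells 24 were higher, with a median of 2.07. Summed, the list held 27190 CPM in sham, 115165 in members and 155474 in Lpl and Igf1 high cells, and Apoe was its largest part in members and in Lpl and Igf1 high cells. Spp1 was at 9.48 CPM in sham ActD cells, 37.8 in standard sham cells, 25608 in gated 3 dpi cells, 1232 in members and 6153 in Lpl and Igf1 high cells. Members were thus far above sham (log2 7.02, 6.81 to 7.24) and below both other injured groups. Gpnmb, a membrane glycoprotein of lipid-laden phagocytes (chr6:49036546-49070929), had 1 UMI in sham cells and 4373 UMIs in members, at 0.05 and 117 CPM (log2 10.57, 8.67 to 16.46). Fabp5, a fatty acid binding protein, went from 15.7 to 380 CPM (log2 4.60), and Itgax, which encodes CD11c, from 7.58 to 52.1 CPM (log2 2.78). Cd63, a tetraspanin of late endosomes, went from 357 to 1326 CPM (log2 1.89).

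Of the 29 tested genes of the list, 12 were within 2-fold of sham before centring, among them the following. Trem2, the lipid receptor upstream of this programme, was at 2186 CPM in sham and 2404 CPM in members (log2 0.14), and its adaptor Tyrobp had a log2 ratio of 0.62. Cd9, a tetraspanin, was at 1112 and 1138 CPM (log2 0.03) and the lysosomal protease gene Ctsd at 6009 and 10101 CPM (log2 0.75). Ccl6, a chemokine, was at 209 CPM in sham, 154 in members and 501 in Lpl and Igf1 high cells. Trem2 and Cd9 were thus at nearly the same level in members and sham cells.

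**Figure D2:**
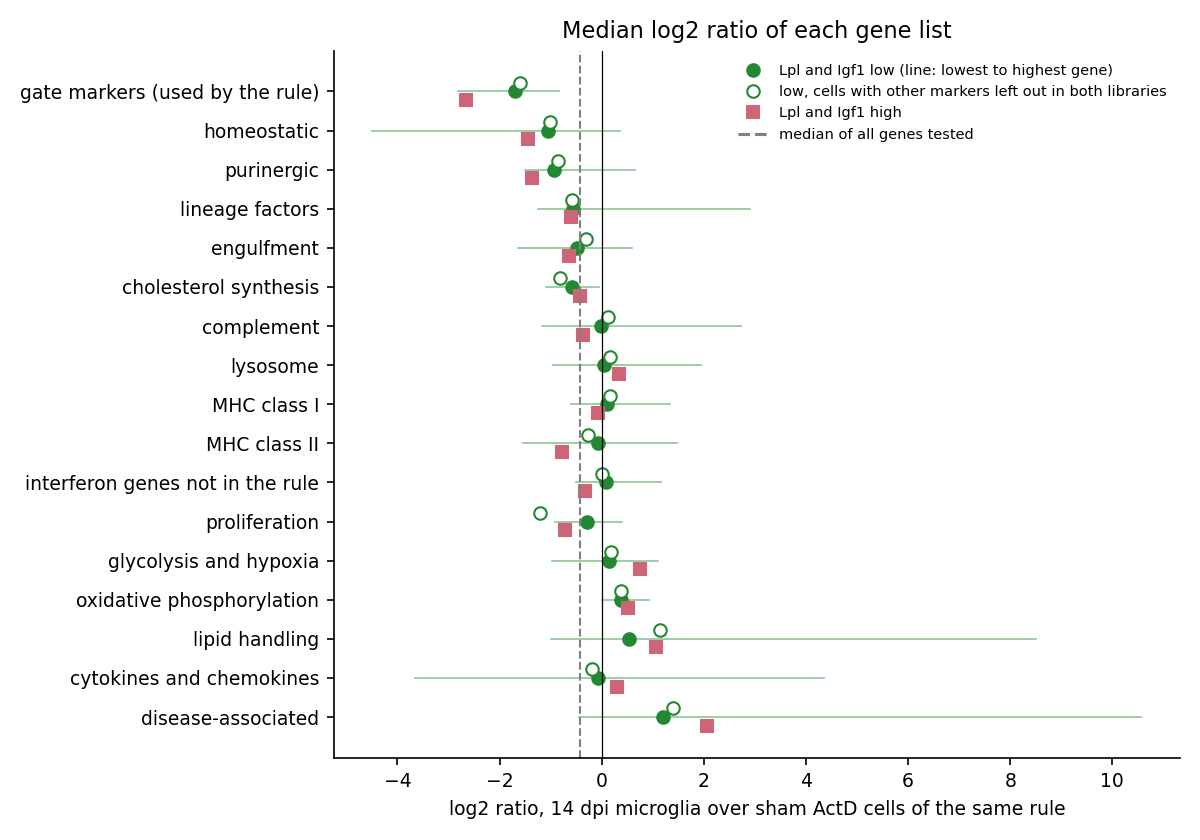
Median log2 ratio over the sham ActD cells for 17 gene lists in members (filled circles, with a line from the lowest to the highest gene), in members without mixed cells (open circles) and in Lpl and Igf1 high cells (squares). The dashed line marks the median of all genes in members, −0.43. The disease-associated list lies furthest right (1.20 in members, 2.07 in Lpl and Igf1 high cells) and the gate genes furthest left (−1.70 in members).

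Whether single members had come back to the sham range was read from both lists in cells drawn to 5000 UMIs. The homeostatic sum had a median of 99000 CPM in sham cells, 50400 in members and 37200 in Lpl and Igf1 high cells. The disease-associated sum had a median of 24000, 103000 and 155600 CPM in the same groups. The sham range was set at the sham 95th percentile of the disease-associated sum (48070 CPM) and the sham 5th percentile of the homeostatic sum (56710). By these limits 13.5% of members were within the sham range of the disease-associated list, and 176 of 2809 members (6.27%, exact Clopper-Pearson 5.40 to 7.23%) were within both, against 92.6% of sham cells and 1 of 2074 Lpl and Igf1 high cells. A further 939 members (33.4%) were within the homeostatic range only. The largest group, 1491 members (53.1%), was outside both. Without mixed members, at the same limits, 7.78% were within the disease-associated range and 155 of 2122 (7.30%) within both. When mixed cells were left out of sham too, the limits tightened to 39000 and 71460 CPM, and 3.86% and 68 of 2122 members (3.20%) were within them. The share also turned on the limit and on Apoe, since 50.4% of members were within the disease-associated range at the sham 99th percentile and 39.2% when Apoe was left out of the list.

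**Figure D3:**
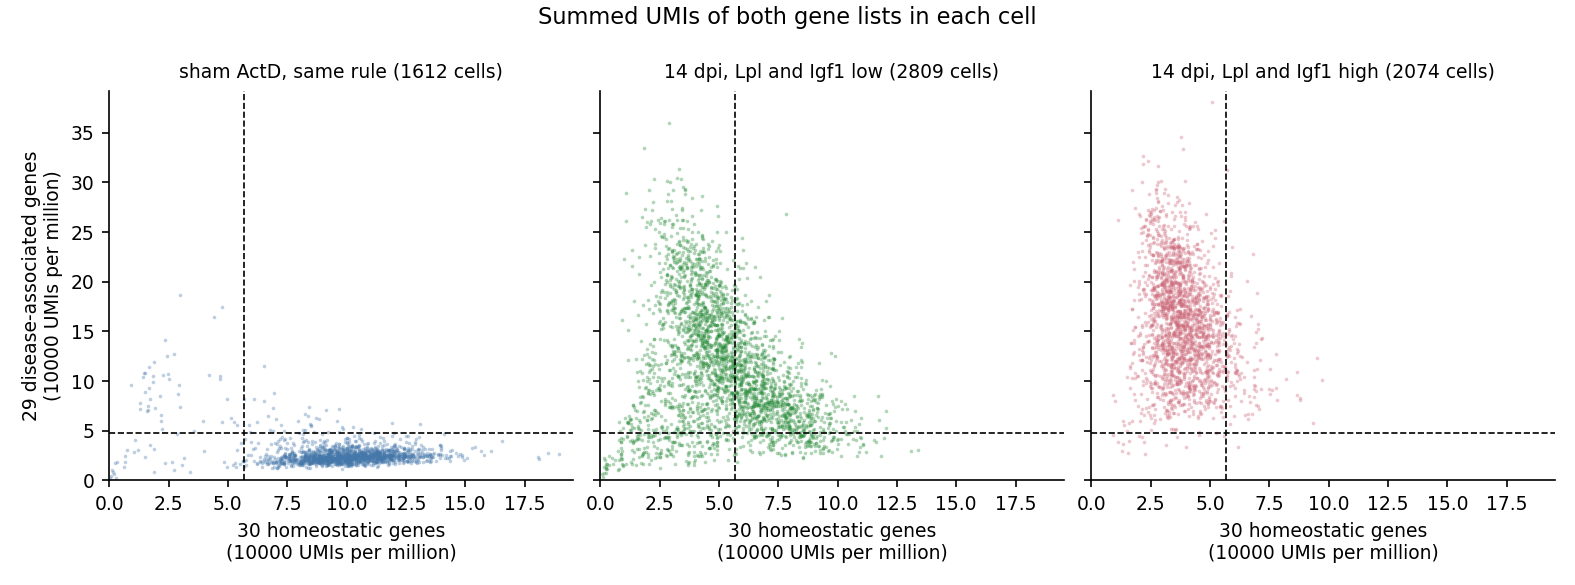
Summed UMIs (in units of 10000 CPM, after drawing 5000 UMIs per cell) of 30 homeostatic genes on the x axis and 29 disease-associated genes on the y axis, with 1 point per cell, in sham ActD cells, members and Lpl and Igf1 high cells. Dashed lines mark the sham 5th percentile of the homeostatic sum and the sham 95th percentile of the disease-associated sum. Members spread from the sham cells' corner at the lower right, which holds 176 of them, to the area of the Lpl and Igf1 high cells.

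A count of neighbours over 30 principal components, with 1612 cells drawn from each group, gave a like picture. Of the 20 nearest neighbours of members, 2.41% were sham cells, 78.0% members and 19.6% Lpl and Igf1 high cells. At least 10 of the 20 neighbours were sham cells for 17 members (1.05%). Sham cells had 95% sham neighbours. Without mixed cells 2.27% of member neighbours were sham cells. Library and condition cannot be told apart in this count.

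Levels within the members moved with Lpl and Igf1, the genes of the rule, and are given as a description. Their depth moved too, with a median of 8678.5 UMIs in members with no UMI of either gene and 13091 in those at 250 to 500 CPM, and its part was not tested. Among the 994 members with no UMI of Lpl or Igf1, Apoe was at 43693 CPM, Cst7 at 214, Spp1 at 282 and P2ry12 at 689 CPM. In the 697 members at 250 to 500 CPM these levels were 92297, 504, 2456 and 285 CPM. Members without any Lpl or Igf1 were thus nearer to sham in all 4 genes, yet above it in Apoe, Cst7 and Spp1 and below it in P2ry12. Apoe did not go on rising past the limit, with 89746 CPM at 500 to 750 and 81820 CPM at 2000 CPM and over. Spp1 did, from 3918 to 7881 CPM over the same bins. The homeostatic sum was 54787 CPM in members without Lpl or Igf1, against 41441 CPM in those at 250 to 500 CPM, and 67369 against 45876 CPM when mixed cells were left out.

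**Figure D4:**
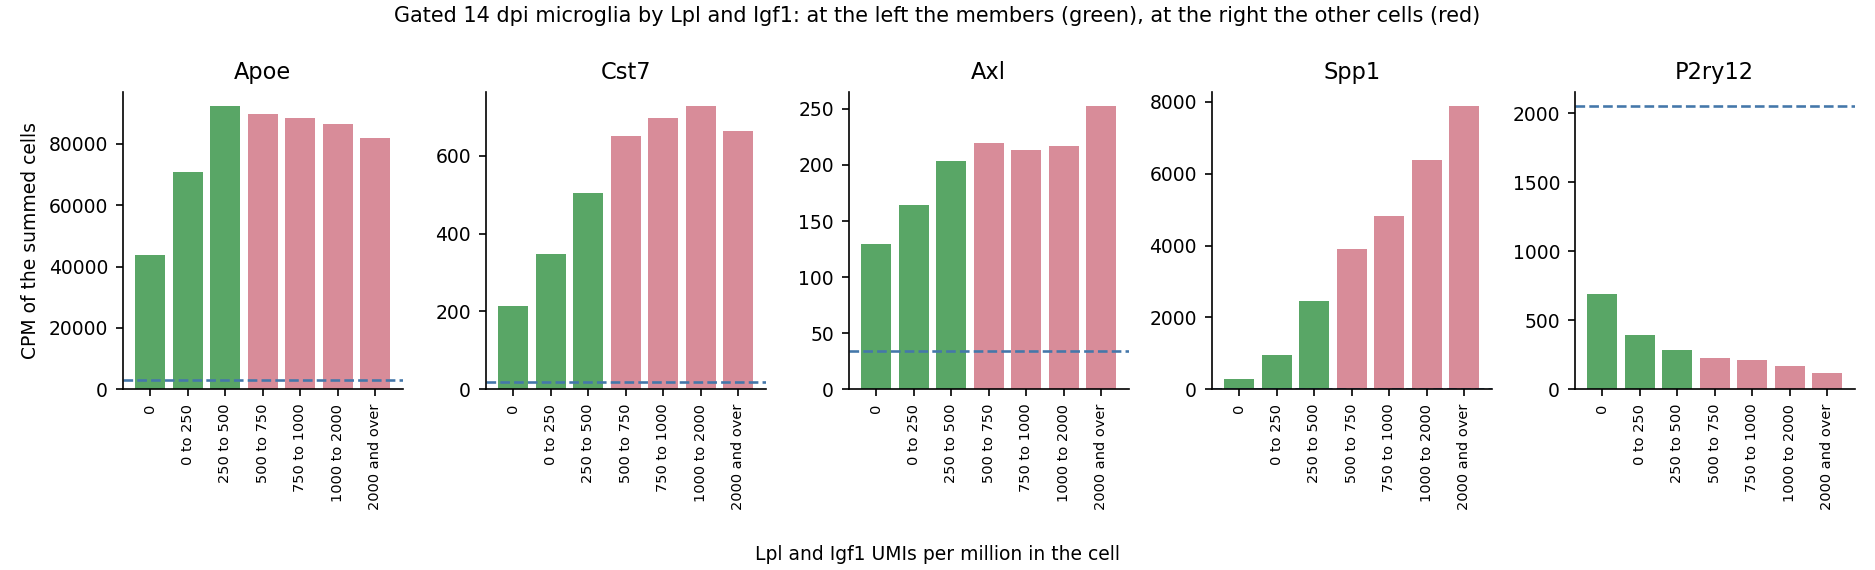
CPM of 5 genes in the summed gated 14 dpi cells, binned by their Lpl and Igf1 UMIs in CPM, with members in green and Lpl and Igf1 high cells in red. The dashed line is the sham ActD level. Apoe rises from 43693 to 92297 CPM within the members and P2ry12 drops from 689 to 285 CPM, still below the sham 2052 CPM.

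Lipid handling genes, of which Ch25h is also in the disease-associated list, were higher in part. Of 17 tested, 7 were higher in members and none lower, with a median log2 of 0.53 (0.96 relative to all genes), and without mixed cells 8 were higher and 1 lower with a median of 1.14. Leaving out Ch25h, 6 of 16 were higher with a median of 0.40. Apoc1 was at 3.94 CPM in sham cells and 363 CPM in members (log2 6.51), and Apoc4 at 0.31 and 121 CPM (log2 8.50, 7.49 to 10.06). In Lpl and Igf1 high cells they were at 689 and 237 CPM. The cholesterol exporters Abca1 (99.4 to 309 CPM, log2 1.64) and Abcg1 (26.5 to 93.1 CPM, log2 1.81) were also higher. Ch25h, the enzyme that makes 25-hydroxycholesterol, was at 0.51 CPM in sham, 18.9 in members and 212 in Lpl and Igf1 high cells. Plin2, a lipid droplet coat protein, went from 37.2 to 86.7 CPM (log2 1.22). Of 17 genes that make cholesterol none was higher and 1 lower, with a median log2 of −0.59, which is −0.16 relative to all genes. Without mixed cells 3 of 15 were lower with a median of −0.81.

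Apoc1 and Apoc4 lie next to Apoe and had still larger ratios, and the 3 genes flanking this cluster did not. Clptm1, 34.2 kb below Apoe in coordinate, had a log2 ratio of −0.44, Tomm40, a mitochondrial import pore subunit 16.3 kb above it, −0.41, and Nectin2, an adhesion gene at 51.3 kb, −0.55. These lie near the median of all genes. Apoc2, a cofactor of lipoprotein lipase in the same cluster, had 1 UMI in sham cells and 3 in members, which was too few for a ratio.

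**Figure D5:**
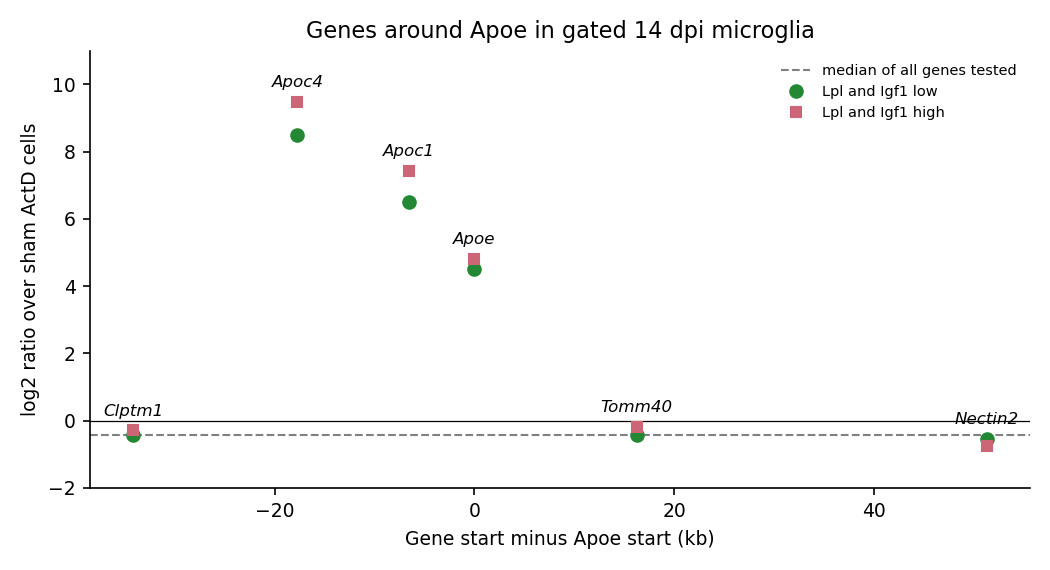
Log2 ratio over sham ActD cells of genes around Apoe on chromosome 7, by the distance of their start from that of Apoe in kb, for members (circles) and Lpl and Igf1 high cells (squares), with the median of all genes in members as a dashed line. Apoe, Apoc1 and Apoc4 stand at 4.51 to 8.50 in members and their 3 neighbours at −0.55 to −0.41.

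Of 8 purinergic genes tested 4 were lower and none higher, with a median log2 of −0.94 (−0.51 relative to all genes), and 1 was lower after centring. Entpd1, the ectonucleotidase CD39, went from 366 to 156 CPM (log2 −1.23), while P2rx4, an ATP-gated channel, was at 92.1 and 146 CPM (log2 0.66). Against standard sham the purinergic median was 0.18, of the opposite sign. Of 17 engulfment genes 5 were lower and none higher, with a median of −0.49 (−0.06 relative to all genes). Mertk, a receptor for apoptotic cells, went from 395 to 176 CPM (log2 −1.16) and Elmo1, a regulator of engulfment, from 305 to 124 CPM (log2 −1.30). Against standard sham the engulfment median was 0.17.

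Complement genes were close to sham, with a median log2 of −0.01 (0.43 relative to all genes) over 10 genes, of which 1 was higher and 2 lower, and none lower after centring. C1qa, a chain of the first complement component, was at 8901 and 9816 CPM (log2 0.14). C3 was higher at 11.01 and 73.0 CPM (log2 2.72), and C5ar1, the receptor of the C5a fragment, lower at 108 and 49.1 CPM (log2 −1.13). Of 23 lysosomal genes 1 was higher, Gla, which encodes alpha-galactosidase A (5.28 to 20.3 CPM, log2 1.94), and the median was 0.04 (0.47 relative to all genes). All 20 nuclear genes of oxidative phosphorylation lay above the median of all genes and none passed 2-fold (median log2 0.38, or 0.81 relative to all genes). Of 18 glycolysis and hypoxia genes 1 was higher in members and 6 in Lpl and Igf1 high cells, with medians of 0.15 and 0.75. Hif1a, the hypoxia-inducible factor subunit, was at 114 CPM in sham, 168 in members and 266 in Lpl and Igf1 high cells.

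Transcription factors of the lineage were partly kept. Spi1, which encodes PU.1, was at 418 and 343 CPM (log2 −0.28) and Irf8, its partner, at 577 and 435 CPM (log2 −0.41). Of 18 such genes 6 were lower and 1 higher, with a median of −0.56 (−0.13 relative to all genes), and none was lower after centring. Maf, a factor of mature tissue macrophages, went from 643 to 281 CPM (log2 −1.19). Bhlhe40, a basic helix-loop-helix repressor, was the gene that was higher, at 2.56 and 19.4 CPM (log2 2.91), while its relative Bhlhe41 was at 254 and 112 CPM (log2 −1.18).

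Cytokines and chemokines went both ways, with 9 of 21 higher and 4 lower and a median of −0.07 (0.36 relative to all genes). The median was −1.48 against standard sham and 0.91 after drawing 5000 UMIs from every cell. Cxcl16, a membrane-bound chemokine, went from 74.95 to 191 CPM (log2 1.35) and Cxcl14 from 1.95 to 40.3 CPM (log2 4.35), against 157 CPM in Lpl and Igf1 high cells. Ccl3 and Ccl4, which draw in myeloid cells and lymphocytes, were at 119 and 184 CPM in members and at 498 and 713 CPM in Lpl and Igf1 high cells. Il6 was at 14.9 CPM in sham and 1.17 CPM in members (log2 −3.65), and Il1a at 62.8 and 17.8 CPM (log2 −1.82). Ccl5, a T cell chemokine that T and NK cells also make, was at 26.8 and 318 CPM and without mixed cells at 16.3 and 152 CPM.

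Of 31 interferon genes outside the rule 2 were higher than in sham ActD, with a median log2 of 0.08 (0.51 relative to all genes). Their sum was 4066 CPM in sham ActD, 5014 in members and 1480 in standard sham, against which the median was 1.99. In male cells 11 of 26 were higher with a median of 0.77 (1440 to 2944 CPM), where 4.69% of all genes were higher. Without mixed cells the male median was 0.52, and that of all genes −0.49. In female cells 1 of 31 was higher with a median of 0.01 (6029 to 7074 CPM), where 2.07% of all genes were. Without mixed cells the female median was 0.004, and that of all genes −0.47. The difference between the sexes was not tested. Neutrophil genes moved from 751 to 23074 CPM and monocyte genes from 22.4 to 921 CPM in male cells, and their part was not tested. Of 20 MHC class I genes 1 was higher, with a median of 0.11 (0.55 relative to all genes). H2-Aa, an MHC class II chain, was at 264 and 337 CPM in all cells but at 30.9 and 166 CPM without mixed cells (log2 0.35 and 2.43), so this gene turned on which cells were kept. The class II list had 1 of 10 higher and 1 lower with mixed cells, and 4 of 9 higher and 1 lower without them. Proliferation genes showed none of 24 past 2-fold, with a median of −0.30 (0.14 relative to all genes). Without mixed cells 14 of 22 were lower with a median of −1.21 (−0.71 relative to all genes). Of 19 immediate early genes, which respond to dissociation, 5 were higher with a median of 0.27 (0.70 relative to all genes). Without mixed cells 2 of 16 were higher and 3 lower, and the median had the opposite sign, −0.46 (0.03 relative to all genes). Of 25 genes that the study named as raised in injury-associated microglia, 7 were higher and none lower with a median of 0.46 (0.89 relative to all genes). The study chose them on these samples, so their direction is not independent evidence.

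The markers of other cells moved with the same comparison. The 12 neutrophil genes summed to 4572 CPM in sham cells and 17544 CPM in members, led by S100a9 at 1696 and 7213 CPM, and to 420 and 1038 CPM without mixed cells. The 10 T and NK cell genes went from 24.4 to 312 CPM, led by Nkg7 at 5.58 and 75.7 CPM, and the 10 monocyte genes from 437 to 900 CPM, led by Plac8 at 178 and 292 CPM. Without mixed cells the T and NK cell genes were at 3.02 and 36.2 CPM and the monocyte genes at 22.03 and 149.5 CPM, of which Fn1, left out of the marking of mixed cells, made up 75.9 CPM in members. The 10 border macrophage genes were at 354 and 271 CPM with all cells and at 12.8 and 166.5 CPM without mixed cells, of which Ms4a7, left out in the same way, made up 119 CPM in members. Every gene of these lists had UMIs in members, and their part in the results with all cells was not tested. Without mixed cells the 4 markers, all of them further from sham in Lpl and Igf1 high cells, kept their direction, at log2 4.54 for Cst7, 2.81 for Axl and −2.11 for P2ry12, and the Apoe ratio was larger, at 5.67 against 4.51 with all cells.

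Immunoglobulin, T cell receptor and rule genes, among others, were left out of the ranking of ratios. Among the largest ratios that remained, after Gpnmb, Apoc4 and Spp1, was that of Cxcl9, a chemokine induced by interferon gamma. It had 2 UMIs in sham cells and 566 in members (0.10 and 15.1 CPM, log2 6.88, 5.34 to 10.25). Apoc1 followed, and Cdo1, which encodes cysteine dioxygenase, was at 0.10 and 5.97 CPM (log2 5.55). Gzma, a granzyme of T and NK cells, Vpreb1, of B cell precursors, and Ifng, of lymphocytes, were also among the 10 largest, at log2 5.90, 5.43 and 5.38. Without mixed cells they were at 5.23, 2.81 and 3.01, with 1, 2 and 1 UMIs in sham cells and 81, 25 and 17 in members. The smallest ratio was that of Retnla, a secreted protein of alternatively activated macrophages, with 362 UMIs in sham cells and none in members, at least 232-fold lower when 3 counts are taken as the floor over the summed members. Without mixed cells it had 51 UMIs in sham cells and none in members, at least 24.6-fold lower. Upk1b and Nnat, a small membrane proteolipid (16.1 to 0.75 CPM, log2 −4.41), were as low without mixed cells (log2 −4.44 and −4.33). Rgs5 and Vtn, genes of pericytes, were at log2 −5.88 and −5.65 with all cells and −0.23 and −0.67 without mixed cells, on 15 and 10 UMIs in members and 12 and 11 in sham cells. Rgs5 is in a list by which cells were left out, so this change follows in part from that choice.

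Genes with the largest ratios in the gated 3 dpi cells were followed to the members. The 3 dpi gate held macrophage transcripts, since 1280 of its 1564 cells (81.8%) were mixed, and 284 cells remained without them. Cxcl3, a neutrophil chemokine, was at 40.6 CPM at 3 dpi, 9.44 CPM in the 284 cells and 0.40 CPM in members, and Timp1, an inhibitor of matrix proteases, at 38.1, 16.8 and 0.59 CPM. Both had no UMI in sham cells. With 15 and 22 UMIs, all members were at least 2.60-fold and 3.82-fold above the floor of 3 counts over the summed sham cells. Without mixed cells the log2 ratio of members over sham cells fell from 4.01 to 2.27 for Cxcl3 and from 4.55 to 1.79 for Timp1. Those lower ratios rest on very few UMIs, so the minimum folds hold only with mixed members kept. Spp1 and Gpnmb were at 14140 and 154 CPM in the 284 cells and at 1232 and 117 CPM in members. Cxcl3 and Timp1 were therefore below 1 CPM in members at 14 dpi, and Spp1 and Gpnmb were above 100 CPM.

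Male and female members could be read apart by Xist and Y-linked genes in 926 and 1064 cells, and in 602 and 752 sham cells. The log2 ratio to sham cells of the same sex was 4.34 in male and 4.50 in female cells for Apoe, 4.35 and 4.52 for Cst7, and −2.44 and −1.93 for P2ry12. These 3 genes kept their direction in both sexes, and the differences between sexes were not tested.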

How the data were processed

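CD45+ cells of the spinal cord were sequenced in 4 libraries, and the authors deposited 1 matrix of UMI counts per library, as whole numbers without normalization. Per the labels the build is mm10, and Cell Ranger is named without a version. The matrix headers carry software version 3.1.0 for the sham ActD and 14 dpi libraries and 3.0.1 for the other libraries. The rule was applied to barcodes as deposited. The members, gene lists and tests were chosen with earlier results of these data known.

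UMIs were summed over the cells of a group and divided by the group total (CPM). Log2 ratios had 0.5 UMI added, with exact conditional Poisson 95% intervals. Lists and calls used genes with 200 or more UMIs over both groups, and calls were made at 2-fold. Ratios of a few single genes without mixed cells rest on fewer UMIs, which are printed beside most of them. No test between conditions was possible with 1 library per group. Shares have exact Clopper-Pearson intervals. UMIs are molecules, and intervals and the floor of 3 counts cover counting error only. Fn1 and Ms4a7 did not count as markers of mixed cells. Genes around Apoe were named for their position. The other genes named were the 4 marker genes, the genes of the rule and members of the 35 lists (477 of 479 genes matched). Added to these were the 10 largest and 10 smallest ratios of members and of gated 3 dpi cells over sham ActD. Sex-linked, mitochondrial, haemoglobin, ribosomal, immunoglobulin and T cell receptor genes were left out of the last step. So were the genes of the rule and symbols that stand for more than 1 row. B cells had UMIs of at least 3 of 4 B cell genes. Doublet scores came from simulated doublets at 0.8% per 1000 cells and were used in an alternative only. Coordinates are from GENCODE M21. Barcodes shared by the sham ActD and 14 dpi libraries numbered 17. The calculations were tested on simulated data. Tools were Python 3.11.15, numpy 2.4.6, scipy 1.17.1, pandas 2.3.3, scanpy 1.11.5, matplotlib 3.10.9 and R 4.3.3 with edgeR 4.0.16 and DESeq2 1.42.0, which gave scaling factors only. Some genes of the lists are not reported here.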

Additional observations from a re-analysis of the deposited data

Results flagged for a closer look

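Proliferation genes, among them cyclins and DNA replication factors, stood on opposite sides of sham in the 2 sexes. In male members over male sham cells the median log2 ratio was 1.19, with 12 of 20 genes higher (4.69% of all genes were), and the summed level went from 993 to 2318 CPM. In female members over female sham cells it was −1.59, with 18 of 23 lower (8.45% of all genes were), and the sum went from 2432 to 1270 CPM. The difference was not tested, since each sex came from 1 library per group. Markers of other cells differed as well, and their part was not tested. Neutrophil genes went from 751 to 23074 CPM in male and from 6413 to 8307 CPM in female cells, and in female cells monocyte genes went from 776 to 569 CPM and border macrophage genes from 390 to 216 CPM. Without cells carrying markers of another cell type the male median was −0.17, over 8 genes, and the female median −1.58, over 18 genes.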

How the results depend on the processing

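The number of genes higher in members, 423 with the settings described, was 170 in female cells alone, 200 with likely doublets left out, 264 with mixed cells left out (chosen after seeing the data), 266 after thinning both groups to an equal number of UMIs, 765 with TMM factors, 772 with median-of-ratios factors, 708 at a minimum of 50 UMIs and 1680 at 1 UMI. The number lower, 890, was 251 with TMM, 246 with median-of-ratios, 1395 at 50 UMIs and 4313 at 1 UMI. Under TMM the median of all genes was 0.04, that of the homeostatic list −0.58 and that of the disease-associated list 1.68.

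The share of members within the sham range of the disease-associated list, 13.5%, was 17.4% at a depth of at least 10000 UMIs, 9.18% with at least 6 gate genes, 18.6% against all gated sham cells, 15.4% in male cells, 9.98% without likely doublets, 7.78% without mixed members at the same limit, 3.86% without mixed cells in either library, which lowers the limit (both chosen after seeing the data), 10.9% against standard sham, 50.4% at the sham 99th percentile and 39.2% with Apoe left out of the list (chosen after seeing the data). Apoe thus set much of this share. The share of gated cells that are members, 56.3%, was 42.3% at a limit of 250 and 69.8% at 1000 CPM for Lpl and Igf1, 53.6% at an interferon limit of 1500, 46.3% at 10000 UMIs, 61.1% with at least 6 gate genes, 53.1% without mixed cells and 60.5% after thinning. Over these alternatives the log2 ratio ran from 4.29 to 5.67 for Apoe, 3.94 to 4.83 for Cst7, 2.05 to 2.81 for Axl and −2.44 to −1.13 for P2ry12, and none changed direction. No replicate could be left out, since each group has 1 library, and no paired analysis was possible because the groups have no replicates. Depth limits genes with few UMIs in sham cells, such as Gpnmb with 1.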
